A study of Mus musculus with 4 samples.

Results

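The interferon regulatory factors described here were Irf1, Irf2, Irf3, Irf4, Irf5, Irf7, Irf8 and Irf9, 8 genes taken by name from 23990 gene symbols. All 8 were among the 10634 genes that averaged 1 FPKM or more in either tissue and were tested. Effector CD4 cells (CD44+CD4) came from wild type mice (C57BL/6 in the labels, C57BL/6J in the study's Methods) immunized with MOG, a myelin antigen, and were sorted when EAE began. Spinal cords (CNS) and pooled cells of the draining lymph nodes (dLN) gave 2 libraries each. EAE is a mouse model of multiple sclerosis in which immunization brings CD4 cells into the CNS. The study's Methods describe 4 h of PMA and ionomycin after the sort, whereas the labels speak of fresh cells and name no stimulation. Values are FPKM, which correct fragment numbers for transcript length and library size, so levels can be compared between genes. The depth read from the spacing of the lowest values was 20.7 M and 21.5 M fragments in the CNS libraries and 18.55 M and 22.0 M in the dLN libraries. The labels do not say whether libraries of a tissue came from separate animals, so p-values measure only the spread between these samples. Sex-linked transcripts also split by tissue, so a difference in sex cannot be told apart from tissue in any comparison below. In each set of 4 values below, CNS replicates 1 and 2 come before dLN replicates 1 and 2.

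Interferon regulatory factors are transcription factors that share a DNA-binding domain and recognise GAAA repeats, as in the interferon-stimulated response element (ISRE) of antiviral genes. Irf3, Irf5 and Irf7 are switched on by kinases downstream of nucleic acid sensors and drive interferon genes, Irf9 is part of the complex ISGF3 that type I interferon activates, and Irf1 and Irf2 act as activator and antagonist at shared sites. Irf4 and Irf8 are lymphoid and myeloid members that bind DNA weakly alone and pair with Batf and Jun proteins or with Spi1 and Spib. In CD4 cells Irf4 is induced by the T-cell receptor and is required for Th17 differentiation and for EAE.

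The label of the cells was first set against markers. All 9 genes of the CD4 T cell list were read in every library, with summed levels of 3202, 3213, 1486 and 1389 FPKM, and Cd3g was the most abundant of them in CNS and Cd2 in dLN. Of the 9, 6 were higher in CNS, beside 37.8% of all tested genes, and Cd2 did not pass the test. Cd5 and Cd44 were lower, beside 37.2%, with Cd44 at 112.3, 112.4, 176.4 and 157.4 FPKM. The call of Cd5 was lost under some alternatives. B cell genes were near the floor, at 1.48, 2.71, 0.746 and 0.490 FPKM summed over 8 genes, with Pax5 at 0 in the 4 libraries. CNS replicate 2 stood apart in myeloid genes. The 18 macrophage or microglia markers summed to 66.6, 313.9, 8.76 and 6.58 FPKM, 16 of the 18 were higher in CNS replicate 2 than in CNS replicate 1, and Lyz2 had the highest mean, at 3.22 and 92.1 FPKM in CNS. In both dLN libraries 10 of the 18 were listed at 0, among them Csf1r, C1qa, C1qb, C1qc, Tyrobp and Trem2. The 6 neutrophil genes used summed to 0.805, 205.5, 0.0229 and 0 FPKM, with S100a8 the highest in mean (0 and 100.9 FPKM in CNS) and Elane at 0 in the 4 libraries. The 7 dendritic cell markers summed to 7.67, 15.8, 3.21 and 2.11 FPKM, with Itgax the most abundant in CNS, and Flt3, Clec9a, Siglech and Cd209a at 0 in dLN. Of the 5 tested, Itgax was higher in CNS, Zbtb46 was lower, beside 37.8% and 37.2% of all tested genes, and 3 did not pass the test, among them Xcr1. Of these 5, 4 averaged 1 FPKM or more in a single tissue, Itgax only in CNS and Zbtb46 only in dLN. Both were thus tested because they were high on that side, and their calls lend no support. Zbtb46 was read at 0.186, 0.403, 1.04 and 1.03 FPKM, and its call was lost without either dLN library.

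All 8 Irf genes differed between the tissues at an adjusted p under 0.05 in limma, where 74.9% of all tested genes did. Irf1, Irf2, Irf5, Irf7 and Irf9 were higher in CNS (5 of 8; 37.8% of tested genes) and Irf3, Irf4 and Irf8 were lower (3 of 8; 37.2%). The CNS and dLN libraries of all 8 genes did not overlap, as in 89.4% of tested genes, so neither count sets the family apart. The sizes spread widely. The absolute log2 ratio had a median of 1.52 over the 8 genes and of 0.80 over all tested genes, and 6 of 8 reached 1, against 40.4% of tested genes. Log2 ratios are CNS over dLN of FPKM + 1, a scale that understates the change of low genes. No member changed direction under other scalings, which moved the median ratio of all tested genes from 0.05 to -0.13 at equal sums and to 0.25 at equal upper quartiles.

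**Figure D1:**
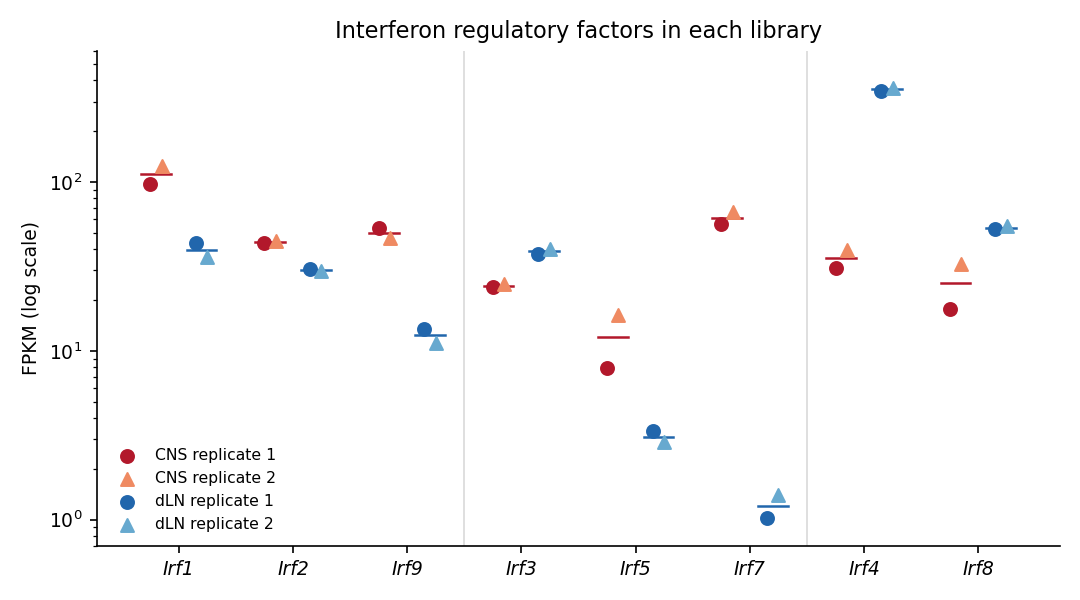
FPKM (log axis) of the 8 Irf genes in each library, with circles for replicate 1, triangles for replicate 2 and short lines for the mean of a tissue. Grey lines separate the interferon response genes (left), the genes downstream of sensors (middle) and the lymphoid and myeloid genes (right), and Irf7 and Irf4 lie farthest apart between CNS (red) and dLN (blue).

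The order of the levels differed between the tissues. In CNS, Irf1 was the most abundant with a mean of 111 FPKM, followed by Irf7, Irf9, Irf2, Irf4, Irf8, Irf3 and Irf5, the last at 12.1 FPKM. Irf4 and Irf8, and Irf8 and Irf3, were neighbours whose CNS libraries overlapped. In dLN, Irf4 led with a mean of 355 FPKM, followed by Irf8 at 53.5 FPKM, Irf1, Irf3, Irf2, Irf9, Irf5 and Irf7, the last at 1.21 FPKM. Irf1 and Irf3 overlapped there. Summed over the 8 genes the level was 330.3, 396.4, 529.4 and 538.7 FPKM. Irf4 alone made up 65.7% and 67.3% of that sum in the dLN libraries, and 9.33% and 10.01% in the CNS libraries. Irf1, Irf7 and Irf9 took 29.4%, 17.0% and 16.1% of it in CNS replicate 1, and 8.24%, 0.192% and 2.54% in dLN replicate 1.

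**Figure D2:**
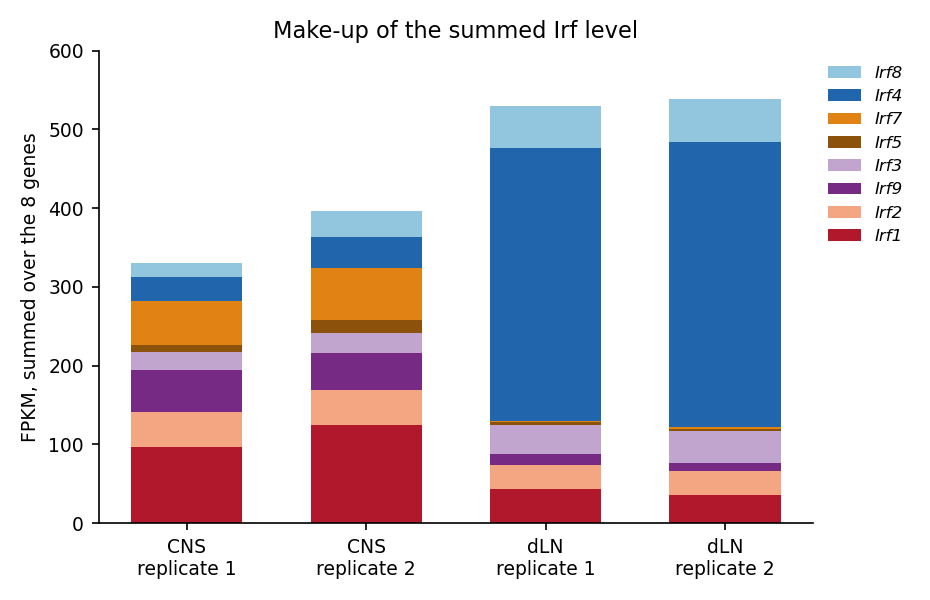
Summed FPKM of the 8 Irf genes in each library (linear axis from 0), with 1 colour per gene. Irf4 fills most of the dLN bars, which reach 529.4 and 538.7 FPKM, while the CNS bars of 330.3 and 396.4 FPKM are spread over Irf1, Irf7, Irf9, Irf2 and Irf4.

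Irf1, the activator induced by interferon-gamma and type I interferon, was read at 97.1, 125, 43.6 and 35.9 FPKM (gene at chr11:53770014-53778374, mm10). Both CNS libraries lay above both dLN libraries. Its mean was 2.79-fold higher in CNS, with a log2 ratio of 1.45 (SE 0.16, adjusted p = 0.0011). The exons of Irf1 share 135 bases (3.4%) with Gm17334 on the opposite strand, for which no FPKM was read. Irf2, which competes with Irf1 for the same sites, was read at 43.7, 44.5, 30.4 and 29.8 FPKM (chr8:46739745-46847458). Its libraries agreed closely within each tissue, and the difference was small, with a log2 ratio of 0.54 (SE 0.08, adjusted p = 0.00265). The ratio of Irf1 to Irf2 was 2.22 and 2.81 in CNS and 1.434 and 1.203 in dLN. It was higher in both CNS libraries, and an exact permutation test gave p = 0.333 (two-sided), the smallest that 2 libraries against 2 allow. Of the 3 Irf2 binding proteins, which act as corepressors with Irf2, Irf2bp2 (29.4, 43.5, 13.07 and 11.95 FPKM) and Irf2bpl (24.3, 28.0, 6.68 and 4.86 FPKM) were higher in CNS. Irf2bp1 did not pass the test (log2 ratio -0.20, adjusted p = 0.117; 0.0146 to 0.884 over its alternatives), and was called lower only with libraries scaled to equal sums (-0.38).

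Of 17 genes listed as targets of Irf1, 16 were tested, 12 were higher in CNS and 3 were lower, beside 37.8% and 37.2% of all tested genes, and 1 did not pass the test. Their median log2 ratio was 1.58, beside 0.05 for all tested genes. Of the 16, 2 averaged 1 FPKM or more only in CNS. This list and the lists below were written with earlier results of these data known. Their counts and medians thus describe the lists and lend no support. In CNS replicate 2, where the myeloid markers were highest, 16 of the 17 were above CNS replicate 1, and the part of those markers was not tested. The share of all tested genes above CNS replicate 1 was not counted, here and for the lists below. Summed over all transcripts, FPKM was 576886 in CNS replicate 1 and 606829 in CNS replicate 2. Both counts were unchanged without either CNS library and fell without either dLN library. Psmb8, Psmb10 and Tap1 were among the genes that rose. Psmb8, an immunoproteasome subunit, was read at 419.6, 425.8, 69.8 and 57.5 FPKM (log2 ratio 2.72, adjusted p = 9.22e-05), and Psmb10 had a log2 ratio of 2.88 (adjusted p = 0.000103). Tap1, which carries peptides into the endoplasmic reticulum, was read at 151.4, 160.3, 64.9 and 56.4 FPKM. The chemokine gene Cxcl10 rose as well (log2 ratio 3.04, SE 0.54, adjusted p = 0.00535), but its CNS libraries differed from each other, at 15.6 and 51.7 FPKM, in the same direction. Its ratio was 2.21 without CNS replicate 2 and 3.88 without CNS replicate 1. The 3 genes that fell were Il15ra (log2 ratio -1.29, adjusted p = 0.000259), Cd274, the gene of PD-L1 (-1.23, adjusted p = 0.00494), and Socs1 (-0.39, adjusted p = 0.0247). The call of Socs1 was lost without dLN replicate 1 (adjusted p = 0.109) and without dLN replicate 2 (adjusted p = 0.0924), among other alternatives (0.00343 to 0.35).

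Promoter stretches are shown for the members with a match to the core of the ISRE, GAAANNGAA, or to the gamma-activated site (GAS), TTCNNNGAA, because the first is bound by the family and the second is found in genes that interferon-gamma induces. RefSeq promoter windows (GRCm38.p6, 250 bases before to 50 after a start site) were found for all 8 members, 11 windows in all, and both strands were searched. The ISRE core occurred in 1 of the 11 windows (Irf2, at -241 from the start site) and in 8.56% of all 32851 windows. GAS occurred in 3 of the 11 (Irf1 at -90, Irf2 at -224, Irf8 at -171 and -153) and in 8.30% of all windows. The matches do not overlap each other, and GAS reads the same on both strands. Matches are in capitals, on the plus strand, which is the strand of the gene in each case, at chr11:53769899-53769957 for Irf1, chr8:46739495-46739554 for Irf2 and chr8:120736162-120736238 for Irf8. A match describes the letters and not binding.
Irf1: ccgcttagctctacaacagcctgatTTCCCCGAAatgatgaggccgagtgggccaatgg
Irf2: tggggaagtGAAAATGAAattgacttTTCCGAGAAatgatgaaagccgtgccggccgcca
Irf8: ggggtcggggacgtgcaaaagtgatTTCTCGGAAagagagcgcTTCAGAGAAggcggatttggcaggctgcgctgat

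Irf9, the DNA-binding subunit of ISGF3, was read at 53.3, 46.9, 13.5 and 11.2 FPKM (chr14:55603985-55610030). The CNS libraries lay well above the dLN libraries, with a 4.06-fold difference of the means and a log2 ratio of 1.94 (SE 0.13, adjusted p = 0.000222). Its 3 transcripts took different shares in the CNS libraries, where NM_001159418 was at 25.4 and 10.2 FPKM and NM_008394 at 19.6 and 25.6 FPKM, so the gene sum was steadier than the transcripts. Its exons share 123 bases (2.28%) with Rnf31 on the same strand, which was at 15.0, 18.4, 14.8 and 16.8 FPKM. Stat2, which binds Irf9, rose too, read at 13.0, 15.1, 3.54 and 2.80 FPKM (log2 ratio 1.85, SE 0.14, adjusted p = 0.000308).

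Among 15 genes of interferon receptors and the JAK-STAT relay, 14 were tested. Of these, 10 were higher in CNS and 2 were lower, beside 37.8% and 37.2% of all tested genes, and 2 did not pass the test, with a median log2 ratio of 1.33. Ifngr1, the ligand-binding chain of the interferon-gamma receptor, was read at 497.1, 471.1, 14.70 and 11.02 FPKM (log2 ratio 5.14, SE 0.15, adjusted p = 8.12e-05). The 2 genes that did not pass the test were its partner chain Ifngr2 and Ptpn2. The 2 genes that fell were Jak2, at 29.4, 31.6, 191.3 and 213.7 FPKM (log2 ratio -2.69, adjusted p = 8.95e-05), and Socs1. The call of Socs1 was lost without either dLN library, and at equal upper quartiles, where 1 gene of the list was lower. At equal sums 3 were lower. Jak1, which serves both receptor types, rose to 176.2 and 156.1 FPKM from 53.94 and 49.96 FPKM.

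Of 21 genes listed as targets of ISGF3 and Irf7, 20 were tested and all 20 were higher in CNS, beside 37.8% of tested genes. Of these, 14 averaged 1 FPKM or more only in CNS, so they were tested because they were high there, and the count and median lend no support. Over all tested genes 14.4% averaged 1 FPKM or more in a single tissue, and in each of the other pathway lists at most 2 genes did. The median log2 ratio was 3.23, also with Mx2, which was listed at 0 in dLN, set to 3 fragments per library. Their calls with each library left out in turn lend no support either, as the same filter chose the genes. Ifit3, an antiviral protein, was read at 49.1, 39.9, 0.194 and 0.188 FPKM (log2 ratio 5.25), and Rtp4 at 42.8, 38.3, 0.07785 and 0.1304 FPKM. Both were among these 14, so their calls lend no support. Isg15, a ubiquitin-like protein, was at 108.4, 150.5, 9.69 and 8.95 FPKM. Bst2, an antiviral membrane protein, was at 163.4, 196.2, 40.0 and 37.9 FPKM, with a log2 ratio of 2.17. The summed level of the 21 genes was 727.9, 795.4, 67.8 and 61.1 FPKM.

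Irf7, which amplifies interferon production and is itself induced by ISGF3, changed most among the 8. It was read at 56.1, 66.4, 1.02 and 1.40 FPKM (chr7:141263183-141266424). Both dLN values were near the level of 1 FPKM and rested on an estimated 31 and 49 fragments, against 1939 and 2323 in CNS. The mean was 50.6-fold higher in CNS, with a log2 ratio of 4.82 (SE 0.14, adjusted p = 8.12e-05), and 28 of the 10634 tested genes had a larger rise. With a pseudocount of 0.1 FPKM in place of 1 the ratio was 5.56. In CNS its level exceeded 87.9% and 89.8% of tested genes, and in dLN 9.75% and 15.1%. Its exons share 45 bases (1.19%) with Phrf1 on the opposite strand, and Phrf1 was at 11.2, 13.6, 27.9 and 29.5 FPKM, so part of the few dLN fragments cannot be told apart from it. In bulk samples fewer cells that express a gene and less RNA per cell cannot be told apart.

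Irf3, the constitutive factor of the same branch, went the other way, at 23.74, 24.95, 37.6 and 40.3 FPKM (chr7:44997648-45002848). The libraries of each tissue lay close together and apart from the other tissue, with a log2 ratio of -0.66 (SE 0.09, adjusted p = 0.0019). The exons of Irf3 share 88 bases (2.56%) with Bcl2l12 on the opposite strand, which was at 5.38, 5.86, 5.96 and 6.10 FPKM. Irf5 was the lowest member in CNS, at 7.85, 16.3, 3.34 and 2.87 FPKM (chr6:29526625-29537320). Both CNS libraries were above dLN, and CNS replicate 2 was 2.07-fold above CNS replicate 1. The log2 ratio was 1.59 (SE 0.33, adjusted p = 0.00871), 1.11 without CNS replicate 2 (adjusted p = 0.0137), 2.07 without CNS replicate 1 (adjusted p = 0.00617) and 1.51 without dLN replicate 2, where the call was lost (adjusted p = 0.0516; 0.00236 to 0.0516 over its alternatives). Irf5 is known from macrophages and dendritic cells, and the 18 macrophage or microglia markers, at 66.6 and 313.9 FPKM in the CNS libraries, moved with it. Their part in the difference between the tissues was not tested. The exons of Irf5 also share 411 bases (14.1%) with Tnpo3 on the opposite strand (GENCODE M21), and Tnpo3 was at 16.2, 15.5, 33.6 and 34.2 FPKM. Fragments of the shared bases cannot be told apart in these values.

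**Figure D3:**
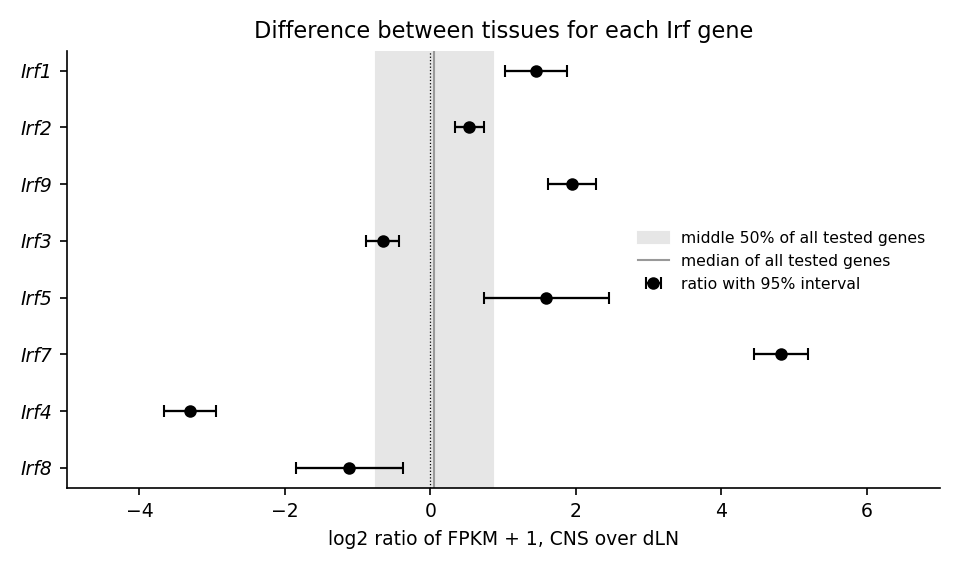
Log2 ratio of FPKM + 1, CNS over dLN, for each Irf gene, with its 95% interval from limma over 2 libraries per tissue. The grey band holds the middle 50% of the 10634 tested genes and the grey line their median (0.05), and Irf2 and Irf3 are the members whose ratios lie inside the band.

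Of 17 sensors, adaptors and kinases that act before Irf3, Irf5 and Irf7, 14 were tested. Of these, 5 were higher in CNS and 6 were lower, near the 37.8% and 37.2% of all tested genes, and 3 did not pass the test, with a median log2 ratio of -0.14. The RNA sensors Ddx58 and Ifih1 went in opposite directions. Ddx58 (RIG-I) was at 26.2, 22.7, 0.691 and 0.343 FPKM (log2 ratio 4.07), and Ifih1 (MDA5) at 12.4, 10.9, 46.3 and 61.8 FPKM (-2.11, adjusted p = 0.000341). Ddx58 averaged 1 FPKM or more only in CNS. It was thus tested because it was high there, and its call lends no support. Tmem173 (STING), the adaptor of DNA sensing, was read at 60.8, 64.2, 16.2 and 11.3 FPKM (2.12, adjusted p = 0.000409). Ikbke, a kinase that phosphorylates Irf3 and Irf7, rose (log2 ratio 1.52, adjusted p = 0.000337). The endosomal receptors Tlr3, Tlr7 and Tlr9 stayed under 1 FPKM in each library and were not tested.

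The ligands were nearly silent apart from Ifng. Of 21 interferon genes listed, 19 were used and 12 of these were at 0 in the 4 libraries. Ifnb1 was at 0, 0.400, 0 and 0 FPKM. Ifng was read at 468.6, 693.0, 324.0 and 137.7 FPKM, with both CNS libraries higher but a wide spread in each tissue. Its log2 ratio was 1.43 (SE 0.44, adjusted p = 0.0343), and the call was lost without CNS replicate 1 (adjusted p = 0.116), without CNS replicate 2 (adjusted p = 0.218), without dLN replicate 2 (adjusted p = 0.0686) and without the filter on low genes (adjusted p = 0.0986). The ratio was 0.81 without dLN replicate 2 and 2.04 without dLN replicate 1 (adjusted p = 0.00675, the lowest of its alternatives).

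**Figure D4:**
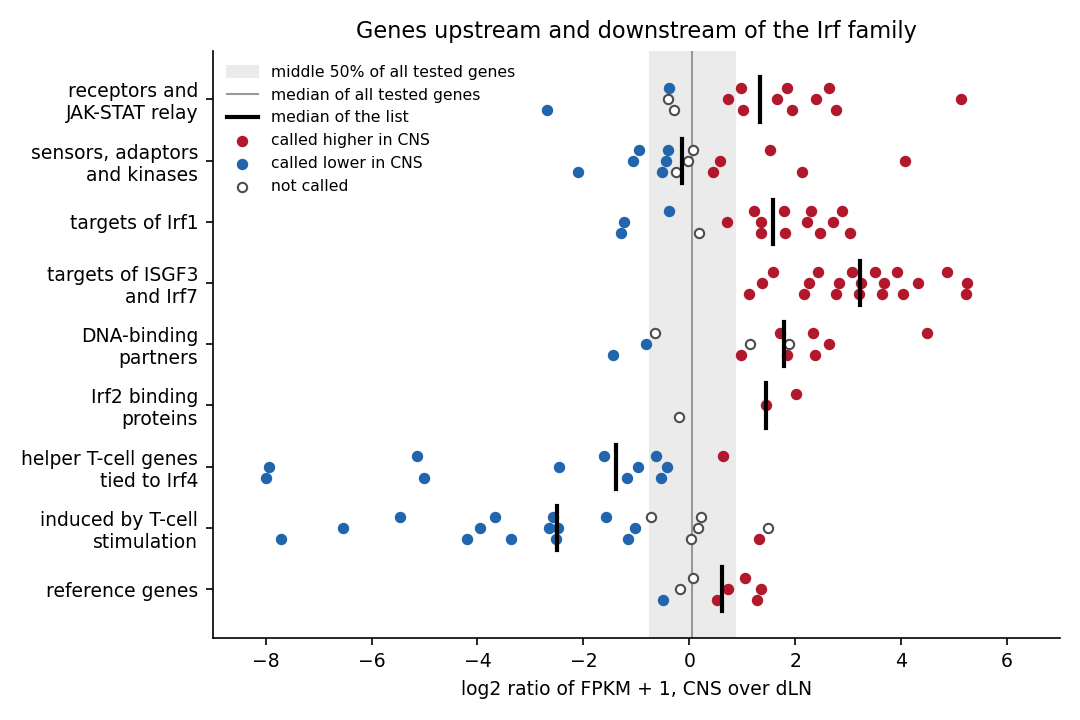
Log2 ratio of FPKM + 1, CNS over dLN, of each tested gene in 9 lists, filled where called (red higher, blue lower in CNS) and open where not, with a black bar at the median of the list. The targets of ISGF3 and Irf7 all lie to the right (median 3.23), the genes tied to Irf4 and to T-cell stimulation mostly to the left (-1.39 and -2.50), and the grey band holds the middle 50% of all tested genes. Of the 20 targets of ISGF3 and Irf7, 14 were tested only because they were high in CNS, so their side and median lend no support. All lists were written with earlier results of these data known.

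Irf4 fell most among the 8. It was read at 30.8, 39.7, 348 and 362 FPKM (chr13:30749258-30766927), carried by a single transcript. Both CNS libraries lay far below both dLN libraries, where Irf4 exceeded 98.2% of tested genes. The mean was 10.1-fold higher in dLN, with a log2 ratio of -3.31 (SE 0.14, adjusted p = 9.15e-05), and 117 of the tested genes had a larger fall. Of 20 genes induced by T-cell stimulation, all tested, 14 were lower in CNS and 1 (Cd69) was higher, beside 37.2% and 37.8% of all tested genes, and 5 did not pass the test. Without CNS replicate 1, 12 were lower and 3 higher, and without CNS replicate 2, 16 were lower and 1 higher. In CNS replicate 2, the library with the highest myeloid markers, 19 of the 20 were above CNS replicate 1. In other lists, this held for 8 of 15 receptor and relay genes, 10 of 17 sensors, adaptors and kinases and 11 of 21 targets of ISGF3 and Irf7. It also held for 6 of 19 interferon genes, 3 of 3 Irf2 binding proteins and 5 of 8 reference genes. The 20 genes induced by stimulation summed to 1598, 2417, 12000 and 13795 FPKM. Il2, the most abundant of them in dLN, was read at 18.2, 38.8, 5363 and 6176 FPKM (log2 ratio -7.70, SE 0.35, adjusted p = 0.000101), and Tnfsf8 at 12.3, 15.9, 1272 and 1546 FPKM. Whether the tissues differed in stimulation, and its part in the level of Irf4, was not tested.

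Of 12 helper T-cell genes tied to Irf4, all were tested, 11 were lower in CNS and 1 was higher, beside 37.2% and 37.8% of tested genes. The median log2 ratio was -1.39, and -1.15 with Il9, which was at 0 in CNS, set to 3 fragments per library. The list was written with earlier results of these data known, so its counts and median lend no support. Il4 and Il9 averaged 1 FPKM or more only in dLN, so they were tested because they were high there. In CNS replicate 2, the library with the highest myeloid markers, 10 of the 12 were above CNS replicate 1. The part of those markers was not tested. Il17f fell from 1416 and 1150 FPKM in dLN to 3.21 and 4.92 FPKM in CNS (log2 ratio -8.00, SE 0.20, adjusted p = 8.12e-05). Il21 was at 3.95, 6.14, 187.8 and 233.7 FPKM, and Il4 at 0, 0.225, 266.3 and 272.8 FPKM. The gene that rose was Prdm1, which encodes Blimp-1, at 14.4, 15.9, 11.4 and 7.64 FPKM (log2 ratio 0.64, adjusted p = 0.0303). Its call was lost without CNS replicate 1 (adjusted p = 0.131), CNS replicate 2 (0.181) or dLN replicate 2 (0.0782), with libraries scaled to equal sums (0.0718) and without the filter (0.0808), with a range of 0.00894 to 0.181.

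Irf8, known from myeloid cells and B cells and as a partner of Batf3 and Spi1, was read at 17.8, 32.6, 52.3 and 54.7 FPKM (chr8:120736358-120756692). Both CNS libraries lay below dLN, but CNS replicate 2 was 1.83-fold above CNS replicate 1. The log2 ratio was -1.12 (SE 0.28, adjusted p = 0.0177), and it was -0.70 without CNS replicate 1 and -1.54 without CNS replicate 2 (adjusted p = 0.0109 and 0.00465). The call was lost without dLN replicate 1 (adjusted p = 0.0678), without dLN replicate 2 (0.0811), without the filter on low genes (0.059) and at equal upper quartiles (0.0536), with a range of 0.00444 to 0.0811 over its alternatives. Macrophage or microglia markers were 66.6 and 313.9 FPKM in the CNS libraries and 8.76 and 6.58 FPKM in dLN. Their part in the difference of Irf8 between the tissues was not tested. Irf4 exceeded Irf8 by 1.73 and 1.22 times in the CNS libraries and by 6.64 and 6.62 times in dLN. This ratio was lower in both CNS libraries (exact permutation p = 0.333, two-sided, the smallest possible).

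**Figure D5:**
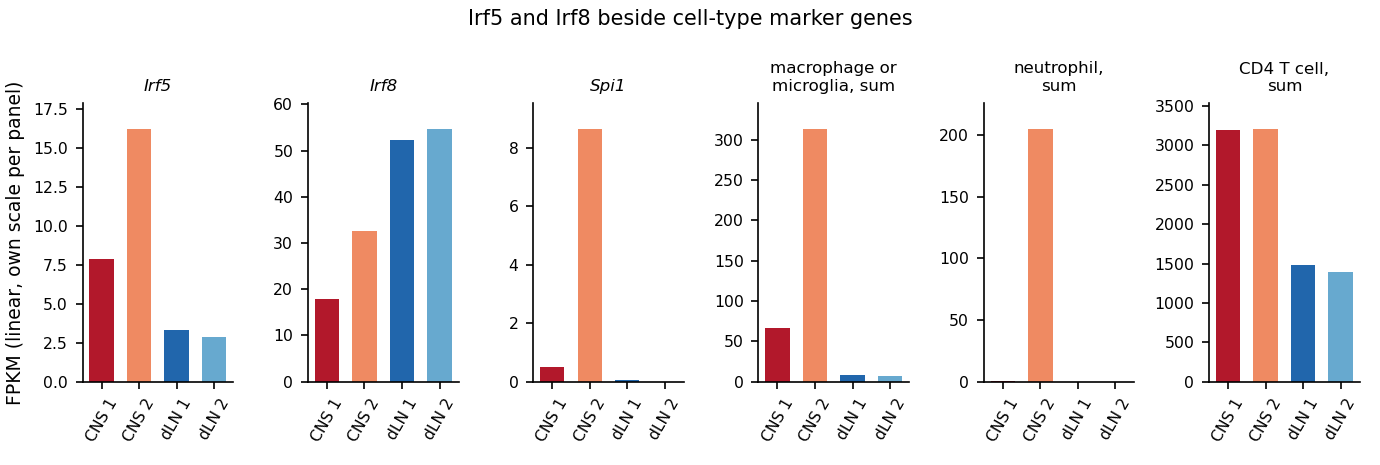
FPKM of Irf5, Irf8 and Spi1 and summed FPKM of 3 marker lists in each library (linear axes from 0, each panel on its own scale; CNS in red, dLN in blue). Irf5, Irf8, Spi1 and the macrophage or microglia and neutrophil sums are higher in CNS replicate 2 than in CNS replicate 1, while the CD4 T cell sums are 3202 and 3213 FPKM.

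Of 13 DNA-binding partners listed, 12 were tested. Of these, 7 were higher and 2 were lower, beside 37.8% and 37.2% of all tested genes, and 3 did not pass the test, with a median log2 ratio of 1.79. In CNS replicate 2, the library with the highest myeloid markers, 12 of the 13 listed were above CNS replicate 1. The part of those markers was not tested. Batf, which pairs with Irf4 at composite elements in Th17 cells, fell with it, at 58.3, 75.0, 178.8 and 183.8 FPKM (log2 ratio -1.44, SE 0.14, adjusted p = 0.000621). Its Jun partners rose, with Junb at 752.0, 1158, 173.6 and 183.5 FPKM (2.38, SE 0.21, adjusted p = 0.000524) and Jun at 292.8, 390.8, 13.8 and 14.4 FPKM (4.49, SE 0.15, adjusted p = 8.33e-05). Nfatc1 was the other gene that fell (log2 ratio -0.82, adjusted p = 0.00288), with a ratio from -2.72 to -0.58 over its alternatives. Batf3 did not pass the test, at 2.21, 4.90, 10.8 and 2.92 FPKM, except without dLN replicate 2 (-1.44, adjusted p = 0.0479; 0.0479 to 0.844 over its alternatives). Spi1, the Ets partner in myeloid and B cells, was at 0.485, 8.66, 0.0471 and 0 FPKM, nearly all of it in CNS replicate 2. It did not pass the test (log2 ratio 1.89, adjusted p = 0.109; 0.00466 to 0.255 over its alternatives), but did without CNS replicate 1 (3.24), without CNS replicate 2 (0.54) and with a pseudocount of 0.1 FPKM (4.22, adjusted p = 0.0346). Spi1 averaged 1 FPKM or more only in CNS, so its calls lend no support. Spib was at 0, 1.32, 0.0415 and 0.0174 FPKM. These Ets partners were thus near 0 in both dLN libraries, where Irf4 and Irf8 were highest.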

How the data were processed

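RNA of sorted effector CD4 cells was measured in 4 libraries, 2 from CNS and 2 from dLN. Reads were trimmed and mapped by the authors, who deposited FPKM for 33819 RefSeq transcripts (mm10) in 1 table per tissue. The program that made the FPKM is not given in the sources used here. The CNS header puts both library names into 1 cell, so its columns were matched to libraries by the order of the names. FPKM was summed per gene symbol, leaving out 565 transcripts without a symbol. Genes averaging at least 1 FPKM in CNS or dLN were compared with limma 3.58.1 (lmFit, eBayes with trend; R 4.3.3) on log2(FPKM + 1), with tissue alone in the model and Benjamini-Hochberg adjustment over all 10634 genes at 0.05. Ratios between members used the exact permutation test in scipy 1.17.1. Depth came from the steps of low FPKM, of which 90.0% to 93.0% were whole fragments within 0.1, and this estimate and the limma fit were tested on simulated data.

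The members and gene lists were chosen with earlier results of these data known. Genes named are the members, their partners, up to 3 of each list with the highest mean and up to 3 with the largest called ratio in each direction, defining markers and genes nearest in pattern to Irf7 and Irf4. Other genes appear only as entries of a list or as a gene sharing exons with a member (GENCODE M21). Alternatives covered the pseudocount, 3 scalings, the highest transcript, 2 filters, eBayes without trend, a replicate block, a 2-fold minimum and each library left out. Tissue, table, pooling of dLN cells and sex-linked transcripts follow the same split and cannot be told apart. Of 5 tested sex-linked genes, 4 averaged 1 FPKM or more only in CNS and 1 only in dLN. All 5 were under 0.1 FPKM on average in the other tissue, beside 3.34% of tested genes.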

Additional observations from a re-analysis of the deposited data

How the results depend on the processing

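Over 15 alternatives each, the 8 Irf genes kept direction in all 120 values and the call in 113. Irf2 (log2 ratio 0.54) and Irf3 (-0.66) were lost when a 2-fold difference was also asked for, which by construction calls fewer genes (4168, with 2230 higher and 1938 lower in CNS). Irf8 was lost at equal upper quartiles (-0.89, adjusted p = 0.0536) and without the filter (-1.12, adjusted p = 0.059), and adjusted p ranged from 0.00444 to 0.0811 over its alternatives. With a library left out, Irf8 ranged from -1.54 to -0.70 and Irf5 from 1.11 to 2.07 (adjusted p from 0.00617 to 0.0516), and the lone library of a tissue is then taken to vary like the other tissue. Of 98 other named genes, 37 changed in at least 1 alternative. Genes not called with all libraries turned direction at equal upper quartiles (Irf2bp1 0.0201, Ppia 0.06, Cd2 0.22), without dLN replicate 1 (Batf3 0.15, with libraries left out -1.44 to 0.15; Cd2 0.0182, likewise -0.0448 to 0.0182), without dLN replicate 2 (Xcr1 -0.14, likewise -0.14 to 0.44) and without CNS replicate 2 (Cd68 -0.78, called lower there at adjusted p = 0.015, likewise -0.78 to 1.12). At equal sums Irf2bp1 (-0.38, adjusted p = 0.0146), Ppia (-0.38, 0.00346) and Cd2 (-0.21, 0.0435) were called lower. Of 570 alternative counts of called genes in the lists, 508 were within 1.5 times and 62 were not. The causes of these changes were not tested. The replicate numbers were not taken to pair the libraries, as their deviations correlated at 0.0933 across 10634 genes. A replicate block gave 7828 calls in place of 7968 and kept the calls of all 8 members. Depth limits Irf7 in dLN, at 31 and 49 fragments.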

Other observations

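The gene whose pattern over the 4 libraries lay nearest to that of Irf7 was the linker histone gene Hist1h1c, at 49.7, 61.9, 1.03 and 0.977 FPKM (CNS replicates 1 and 2, then dLN replicates 1 and 2), with a root-mean-square difference of 0.106 in centred log2(FPKM + 1). Hspa1l (0.153), 5430421N21Rik (0.170), Jun (0.189) and Ifit1 (0.209) came next. Nearest to Irf4 were Cdk5r1 (0.0358), Trmt61a (0.0363), Slc1a4 (0.0493), Nop16 (0.0666) and 2410002F23Rik (0.0722), of which Nop16, a nucleolar protein, was at 8.91, 10.4, 108.1 and 109.9 FPKM. With 2 levels of tissue and 4 libraries, such a likeness mostly measures the size of the difference between tissues.

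The transcripts of Irf7 did not keep their shares. NM_016850 made up 54.3% and 51.1% of the gene in CNS, and 73.8% and 0.0523% in dLN, where the whole gene rested on 31 and 49 fragments. Irf3 was mostly NM_016849, with 5.87%, 7.86%, 8.98% and 10.1% in the noncoding NR_045611. Irf1 was at least 98.0% NM_008390 in each library.

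Other lists gave these values. NK cell markers summed to 5.14, 7.96, 0.2699 and 0.1802 FPKM over 5 genes, with Klrb1c the most abundant in CNS and Klra8 and Klra7 at 0 in dLN. CD8 T cell genes summed to 3.79, 5.40, 3.42 and 3.40 FPKM over 2 genes. Plasma cell genes summed to 46.3, 48.1, 101.8 and 78.2 FPKM over 4 genes, nearly all of it Xbp1, with Tnfrsf17 at 0 in the 4 libraries. Neural or glial genes summed to 51.9, 54.2, 55.8 and 58.0 FPKM over 8 genes. Most of it was Mbp, at 48.6, 44.5, 55.5 and 57.7 FPKM, so the sum hides the other genes. Tubb3, at 2.098, 4.40, 0.105 and 0.0294 FPKM, was higher in CNS. Gfap, at 0.655, 2.51, 0 and 0 FPKM, was called higher and Mbp lower, and both calls were lost without either dLN library, that of Mbp also without CNS replicate 2, among other alternatives. Tubb3 and Gfap had their highest values in CNS replicate 2. Of the 4 neural or glial genes tested, 3 averaged 1 FPKM or more only in CNS, Tubb3 and Gfap among them, so their calls lend no support. Mog, Gfap, Aqp4 and Rbfox3 were at 0 in dLN. Of 8 reference genes, 5 were higher in CNS and Tbp was lower, beside 37.8% and 37.2% of all tested genes, with a median log2 ratio of 0.62, and Tbp was not called at equal upper quartiles (-0.28, adjusted p = 0.0713).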
